A study of Homo sapiens with 2 samples.

Results

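The genes for 8 integrin subunits, ITGA1, ITGA2, ITGA5, ITGA6, ITGAV, ITGB1, ITGB3 and ITGB5, were examined for accessible chromatin in 2 states of WIBR3, a line of human embryonic stem cells. ATAC-seq, in which a transposase cuts and tags open DNA, was read from 1 library of hTBLCs, cells from a study that seeks totipotency through spliceosomal repression, and 1 library of primed cells, the conventional culture state. Both libraries came from 50000 living cells of this one line, so 2 libraries are compared, without replicates and without a test between the states. The labels name no agent, dose or duration. A peak belonged to an integrin locus when its summit lay inside the gene or within 50 kb of it. This gave 214 of 299673 peaks in hTBLC and 197 of 295753 in primed, which merged into 175 and 156 regions. The genes were chosen by family with a strong hTBLC-only region in ITGA2 in view, selected on its summit values in both lists, so the values at that region are a description. At the rule's limit, the summits nearest to 50 kb were an hTBLC-only region of pileup 14 at 49766 bp from ITGA1 and, just outside, one of pileup 10 at 50561 bp from ITGB5.

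Integrins are cell surface receptors made of 1 alpha and 1 beta subunit, and they tie the extracellular matrix outside the cell to the actin skeleton inside it. ITGB1 encodes the beta subunit shared by most matrix receptors. ITGA1 and ITGA2 pair with it to bind collagens, ITGA5 to bind fibronectin and ITGA6 to bind laminins, the matrix on which human stem cells are often grown. ITGAV pairs with several beta subunits, among them those of ITGB3 and ITGB5, in receptors for vitronectin and other proteins that carry the RGD sequence. ITGA6 is a familiar surface marker of stem cells, and integrin alpha V beta 5 is known to mediate attachment of human pluripotent cells to vitronectin.

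The promoter table of RefSeq (GRCh38.p14) held 12 annotated starts for 7 of the 8 genes, and ITGB3 had no entry. The 4 promoters below show the range of starts found here, each as the 250 bases before the start, with capitals marking the GC box GGGCGG or its reverse CCGCCC. ITGAV had the highest pileup of the starts in both libraries, ITGA2 lay near the strongest hTBLC-only region, ITGA5 was GC-rich but had a low pileup, and the inner start of ITGB1 had no region in either library.
ITGAV, outer start, chr2:186589806-186590055, + strand: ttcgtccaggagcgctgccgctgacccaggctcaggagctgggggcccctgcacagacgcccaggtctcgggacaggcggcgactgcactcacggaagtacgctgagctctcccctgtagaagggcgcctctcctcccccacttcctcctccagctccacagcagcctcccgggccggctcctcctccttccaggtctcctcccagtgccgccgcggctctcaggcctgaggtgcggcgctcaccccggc
ITGA2, chr5:52989102-52989351, + strand: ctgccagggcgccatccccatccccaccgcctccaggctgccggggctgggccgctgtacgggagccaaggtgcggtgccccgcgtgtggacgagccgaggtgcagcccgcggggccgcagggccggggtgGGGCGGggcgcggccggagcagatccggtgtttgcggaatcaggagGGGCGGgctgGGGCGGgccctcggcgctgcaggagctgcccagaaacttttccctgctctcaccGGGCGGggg
ITGA5, chr12:54419267-54419516, - strand: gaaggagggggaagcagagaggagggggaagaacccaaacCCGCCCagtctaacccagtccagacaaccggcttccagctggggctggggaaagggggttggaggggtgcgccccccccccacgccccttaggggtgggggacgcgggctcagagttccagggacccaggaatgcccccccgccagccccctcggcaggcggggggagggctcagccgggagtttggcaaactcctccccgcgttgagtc
ITGB1, inner start, chr10:32935559-32935808, - strand: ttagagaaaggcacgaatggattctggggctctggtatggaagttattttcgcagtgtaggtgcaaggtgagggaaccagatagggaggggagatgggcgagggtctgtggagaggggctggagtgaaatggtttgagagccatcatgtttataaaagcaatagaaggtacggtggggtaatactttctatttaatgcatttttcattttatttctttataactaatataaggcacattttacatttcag
The ITGA2 promoter held 4 GC boxes with 76.4% G and C and 26 CpG, and the ITGA5 promoter held 1 with 70.0% and 12 CpG. The ITGAV promoter held none with 70.8% and 18 CpG. The inner ITGB1 promoter had 41.6% G and C and 4 CpG, against medians of 62.0% and 16 CpG over 22132 promoters of protein-coding genes. The GC box, on either strand, occurred before 6 of the 12 starts and in 53.7% of all these promoters. The letters CCAAT and TGANTCA, the CCAAT box and the AP-1 motif, were found before none of the 12 starts on either strand, with shares of 32.7% and 5.35% over all promoters. The TATA box letters TATAAA, or their reverse TTTATA, stood before 2 starts, the outer one of ITGA6 and the inner one of ITGB1 (9.0% of all promoters). At ITGA6 only the reverse was found. The TEAD motif GGAATG stood before the outer start of ITGB1 and before ITGA5 (10.5% of all promoters). A match is a description of these letters and not a bound site.

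All 7 genes with an annotated start had a region within 1 kb of it in hTBLC and in primed. Among 15812 protein-coding genes with a start, 79.3% had such a region in both libraries, 2.25% in hTBLC alone and 2.9% in primed alone. When peaks under a −log10 q of 5 were dropped, the ITGA5 start, with −log10 q values of 4.57 in hTBLC and 7.19 in primed, was in primed alone. The pileup, the number of reads or fragments stacked at the summit, was solved from the deposited fold and p-value, and its exact Poisson 95% interval covers counting error only. ITGAV had a pileup of 219 (191 to 250) in hTBLC and 253 (223 to 286) in primed, and ITGB1 had 175 (150 to 203) in hTBLC and 129 (108 to 153) in primed. ITGA1 had 110 (90.4 to 133) in hTBLC and 127 (106 to 151) in primed, at a start that it shares with PELO, so the signal there cannot be given to one gene. ITGAV, ITGB1 and ITGA1 led in this order in both libraries, although the intervals of ITGAV and ITGB1 overlap in hTBLC and those of ITGB1 and ITGA1 overlap in primed. The interval at the inner starts of ITGB5, given below, also overlaps that of ITGA1 in both libraries and that of ITGB1 in primed.

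ITGA2 had a pileup of 73 (57.2 to 91.8) at its start in hTBLC and 45 (32.8 to 60.2) in primed. ITGA6 had 62 (47.5 to 79.5) in hTBLC and 64 (49.3 to 81.7) in primed, in a region that covers both of its annotated starts. The region at the low-coordinate end of ITGB3 had 43 (31.1 to 57.9) in hTBLC and 25 (16.2 to 36.9) in primed, and no region lay within 1 kb of its other end. ITGA5 had the lowest pileup among the strongest regions within 1 kb of a start of the 8 genes. It was 20 (12.2 to 30.9) in hTBLC and 24 (15.4 to 35.7) in primed. Just outside this window, a shared region with its summit 1392 bp before the ITGA5 start had 33 in hTBLC and 33 in primed. ITGB5 was accessible mainly at a pair of inner starts inside the gene, with 107 (87.7 to 129) in hTBLC and 97 (78.7 to 118) in primed, while its outer start had 12 in hTBLC and 11 in primed. The inner start of ITGAV had 14 in hTBLC and 17 in primed, far below the outer start of the same gene.

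To compare the libraries, each ratio of hTBLC to primed pileup was divided by 1.09, the ratio of their lowest local backgrounds, with an exact binomial 95% interval. The scaled ratio at the start was 1.48 (1.01 to 2.20) for ITGA2, higher in hTBLC, and 0.79 (0.66 to 0.95) for ITGAV, lower in hTBLC. Without scaling the ITGAV interval included 1, at 0.87 (0.72 to 1.04), and those of ITGB1, at 1.36 (1.07 to 1.72), and ITGB3, at 1.72 (1.03 to 2.94), lay above 1. For the other 8 of the 10 separate start regions the interval included 1, with ratios of 0.75 at the inner ITGAV start to 1.57 (0.94 to 2.69) at ITGB3. None reached 2-fold in either direction, which over 11825 genes happened upwards in 2.05% and downwards in 4.17%. The plot of pileups at gene starts shows the hTBLC and primed values beside each other for all 10 regions.

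**Figure D1:**
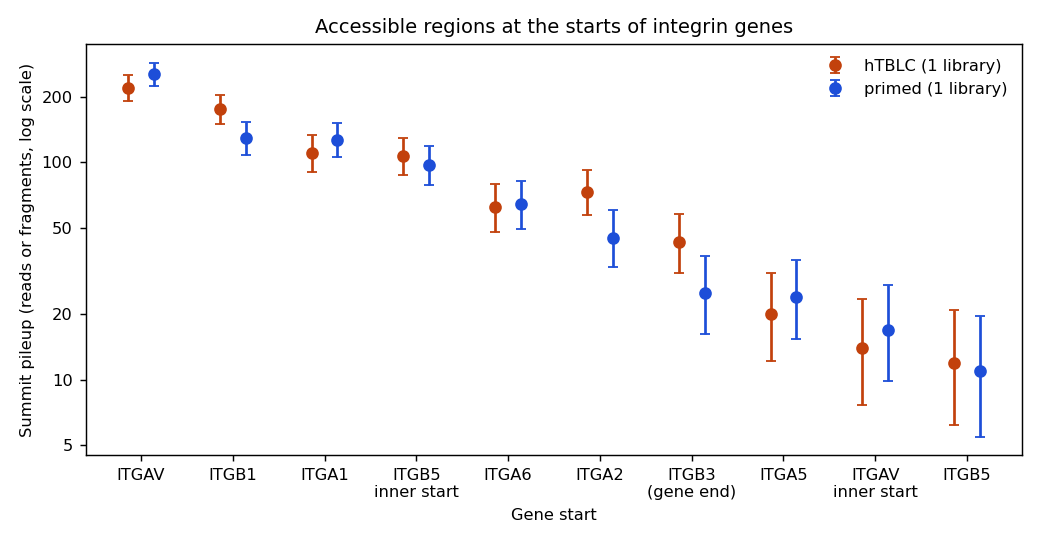
Summit pileup (log scale) at each integrin gene start in hTBLC (orange) and primed (blue), 1 library each, with exact Poisson 95% intervals; "inner start" marks a start inside the gene. The genes span from 219 in hTBLC and 253 in primed at ITGAV to 12 in hTBLC and 11 in primed at the outer ITGB5 start, and no pair differs by 2-fold.

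Away from the starts the libraries had regions of their own. A region was called library-only when it touched no region of the other list by 1 bp or more. Of the regions at the 8 loci, 64 of 175 in hTBLC (36.6%, Wilson 95% interval 29.8 to 43.9) were hTBLC-only, where the share over all hTBLC regions was 39.2%. In primed, 46 of 156 (29.5%, 22.9 to 37.1) were primed-only, where the share over all primed regions was 37.3%. The hTBLC share lies near that of the whole genome, and the primed share lies below its own with an interval that ends just short of it. These intervals treat regions as independent, but regions of 1 locus share a source and are not replicates, so they are no test. The median pileup of these regions was 12.5 in hTBLC (7 to 108) and 12.5 in primed (6 to 50), so most were weak. At a −log10 q of 10 or more, 10 hTBLC regions and 7 primed regions were absent from the other list. Over all regions such strong library-only ones made up 4.78% in hTBLC and 5.55% in primed.

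At ITGAV, 15 of 38 hTBLC regions were hTBLC-only and 6 of 28 primed regions were primed-only. The numbers were 10 of 23 and 5 of 18 at ITGA1 and 14 of 36 and 8 of 30 at ITGB5. At ITGB1 they were 8 of 17 and 2 of 11. Over all regions the shares were 39.2% in hTBLC and 37.3% in primed. ITGA6 was the 1 gene with more primed-only regions, 5 hTBLC-only of 17 against 11 primed-only of 23. ITGA2, ITGA5 and ITGB3 had equal numbers, with 5 of 12, 4 of 25 and 6 of 13 in each library. Of the 10 hTBLC-only regions counted for ITGA1, 2 lie inside ITGA2. Dropping peaks under a −log10 q of 5 from both lists turned the order at ITGB5, to 6 hTBLC-only and 8 primed-only ones. A limit of 10 turned it back at ITGB5, to 5 and 4. The limit of 5 also ended the equal numbers, with 5 and 1 at ITGA2, 2 and 6 at ITGA5 and 5 and 2 at ITGB3. At 10 the numbers were 2 and 1 at ITGA2, 0 and 4 at ITGA5 and 2 of each at ITGB3. With a limit of 10, ITGAV had 2 of each. The sum over the 8 loci turned likewise, with 17 hTBLC-only and 22 primed-only regions at 10. Such a limit also makes a region library-only when its partner in the other list is dropped. Against the full lists, 10 hTBLC-only and 7 primed-only regions reached a −log10 q of 10. ITGA1 and ITGA2 are neighbours on chromosome 5, and 6 hTBLC and 4 primed regions near both were counted once in the totals.

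**Figure D2:**
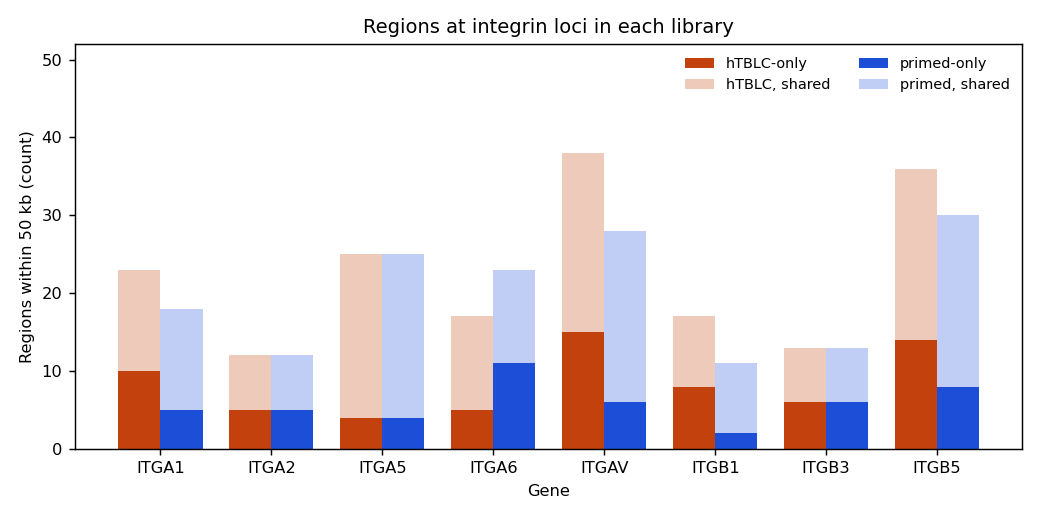
Number of regions with a summit inside or within 50 kb of each gene, hTBLC left (orange) and primed right (blue); dark bars are regions in that library only and light bars are shared regions. ITGA6 has 5 hTBLC-only of 17 and 11 primed-only of 23 regions, while ITGAV has 15 of 38 and 6 of 28.

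The strongest library-only region of the 8 loci lay in the body of ITGA2, on chromosome 5 at 52997408 to 52997874, 8298 bp after the gene start. Its pileup was 108 (88.6 to 130) in hTBLC, higher than the 73 at the ITGA2 start itself, and no primed region lay within 6996 bp. The authors' fold enrichment of 22.1 placed it at rank 4 of 98291 hTBLC-only regions, and its pileup at rank 28. The primed list held peaks down to a pileup of 6 where the background was lowest, so the absence of a line there sets at most a limit, not a value. Lines were also missing for 252 ranks of the primed list, and a region on one of them would go unseen. A shared region further along ITGA2, at position 53035940, had 26 in hTBLC and 22 in primed, with a ratio of 1.08 whose interval included 1. Upstream, a shared region at position 52983945 had 24 in hTBLC and 12 in primed (ratio 1.83, 0.88 to 4.01). The strongest primed-only region near ITGA2, with a pileup of 13 (6.92 to 22.2), lay 32086 bp before the start, inside ITGA1.

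ITGA1, the neighbouring collagen receptor gene, had 7 hTBLC-only and 3 primed-only regions in its body, beside 7 that matched 1 to 1. Over the bodies of all protein-coding genes, 40.1% of hTBLC regions and 41.9% of primed regions were library-only. These ITGA1 counts are small and are a description only. The strongest of the 7 hTBLC-only regions, named after their values were seen, had a pileup of 61 (46.7 to 78.4) at 52870378 to 52870950. A pair further upstream had 44 (32.0 to 59.1) at 52837117 to 52837477 and 27 (17.8 to 39.3) at 52840236 to 52840697. The nearest primed regions were 1321, 18445 and 21564 bp away. In the other direction, a primed-only region of pileup 35 (24.4 to 48.7) lay 895 bp before the ITGA1 start, only 414 bp from an hTBLC region, and one of pileup 22 (13.8 to 33.3) lay in the gene body. The 13 regions that matched 1 to 1 between the libraries near ITGA1 had ratios of 0.61 to 1.83, and none was past 2-fold.

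**Figure D3:**
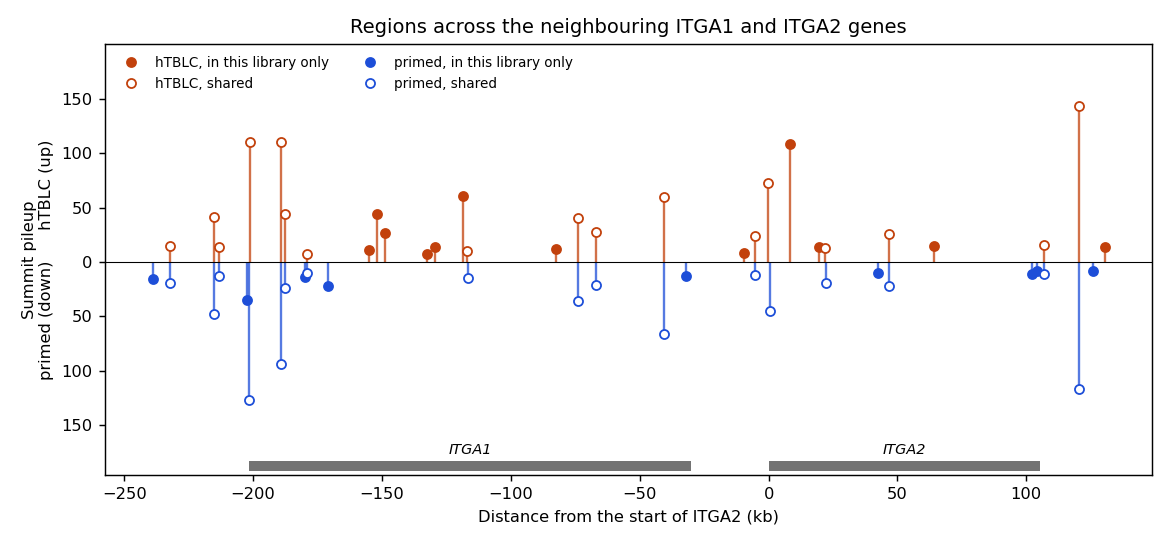
Summit pileups of all regions across ITGA1 and ITGA2, hTBLC upwards and primed downwards, by distance in kb from the ITGA2 start; filled points are in 1 library only, open points are shared, and grey bars mark the genes. The filled orange point of pileup 108 stands just inside ITGA2, and the regions of 61, 44 and 27 stand inside ITGA1.

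ITGA6, which encodes the alpha subunit of a laminin receptor, held more primed-only than hTBLC-only regions. Its body held 1 hTBLC-only region, with a pileup of 8, and 5 primed-only regions, beside 7 that matched 1 to 1. Over the bodies of all protein-coding genes, 40.1% of hTBLC regions and 41.9% of primed regions were library-only. The primed-only count in ITGA6 lies near that share, and the hTBLC-only count lies below its own. The strongest primed-only region in the body had a pileup of 47 (34.5 to 62.5) at 172454327 to 172454770. One of 32 (21.9 to 45.2) lay next to it at 172455985 to 172456268. No hTBLC region lay within 5058 bp of the first or 5597 bp of the second. A shared region of the gene body with its summit at position 172462211 had 21 (13.0 to 32.1) in hTBLC and 86 (68.8 to 106) in primed, a scaled ratio of 0.22 (0.13 to 0.36). Another, at position 172435242, had 18 (10.7 to 28.4) in hTBLC and 45 (32.8 to 60.2) in primed, a ratio of 0.37 (0.20 to 0.64).

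Beyond the end of ITGA6, a shared region had 7 in hTBLC and 26 in primed (ratio 0.25, 0.09 to 0.58). A primed-only region of pileup 38 (26.9 to 52.2) lay further out, at 172535009 to 172535746. Not all of the locus was lower in hTBLC: of the 7 matched regions in the gene body, 3 had a ratio above 1 and 4 below. One of them had 16 in hTBLC and 7 in primed, a ratio of 2.09 whose interval, 0.81 to 6.01, included 1. The start had 62 and 64, as given above, and the start of a neighbouring gene had 143 in hTBLC and 120 in primed (ratio 1.09, 0.85 to 1.40). The local background at the matched regions had a median of 1.99 in hTBLC and 3.06 in primed. Its part in the result was not tested.

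**Figure D4:**
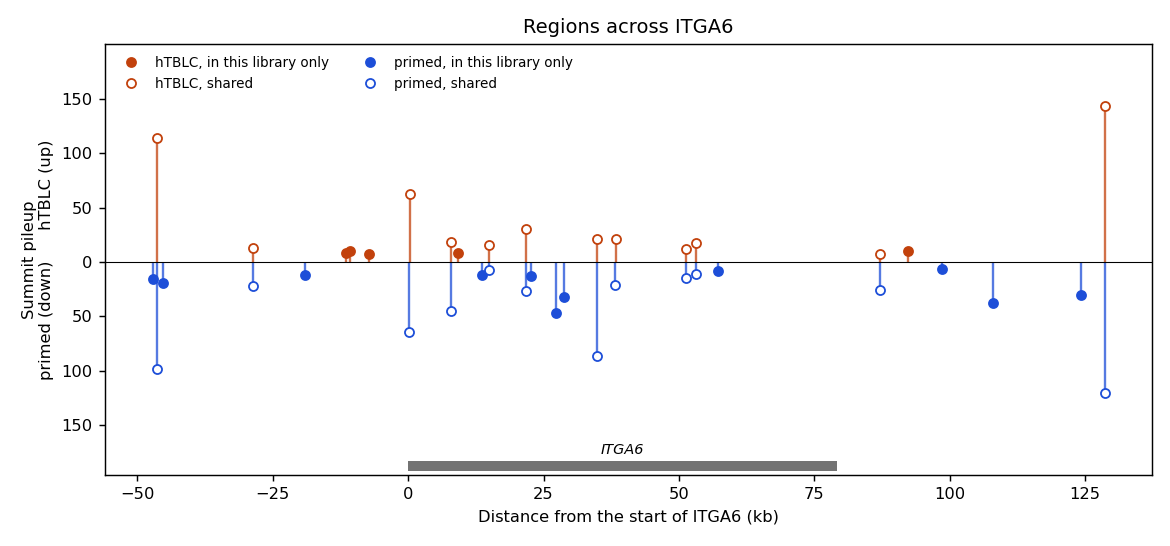
Summit pileups of all regions across ITGA6, hTBLC upwards and primed downwards, by distance in kb from the gene start; filled points are in 1 library only, open points are shared, and the grey bar marks the gene. Inside the gene the primed values of 45, 47, 32 and 86 stand against hTBLC values of 18 and 21 or no region, while the start has 62 in hTBLC and 64 in primed.

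Around ITGA5, the fibronectin receptor gene, 3 of 21 matched regions were past 2-fold lower in hTBLC. This is near the share over all matched regions, 13.3%. All 3 lay upstream of the start. The nearest, 8850 bp before the start, had 15 (8.40 to 24.7) in hTBLC and 46 (33.7 to 61.4) in primed, a ratio of 0.30 (0.15 to 0.54). The region 12920 bp before the start had 18 in hTBLC and 37 in primed, a ratio of 0.44 (0.24 to 0.80). The furthest, 33590 bp before it, had a ratio of 0.49 (0.24 to 0.98), whose interval included 1 without scaling. Inside the gene, a primed-only region of pileup 50 (37.1 to 65.9) lay at 54411568 to 54412372, with the nearest hTBLC region 994 bp away. The strongest hTBLC-only region near ITGA5 had a pileup of 47 (34.5 to 62.5) on a local background of 19.2, with a fold of only 2.38, in the flank 39606 bp beyond the gene.

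ITGB5 carried differences in both directions inside its body. Its strongest hTBLC-only region had a pileup of 43 (31.1 to 57.9) at 124770696 to 124771041, near the 3′ end of the gene, 1541 bp from a primed region. A shared region close to it, with its summit at position 124774496, was lower in hTBLC, with 46 (33.7 to 61.4) in hTBLC and 102 (83.2 to 124) in primed, a ratio of 0.41 (0.28 to 0.59). Another in the body, at position 124788364, had 7 in hTBLC and 17 in primed (ratio 0.38, 0.13 to 0.96), with an interval that included 1 without scaling. The last, at position 124826912, had 15 in hTBLC and 31 in primed (ratio 0.44, 0.22 to 0.84). The strongest primed-only region, of pileup 40 (28.6 to 54.5), lay 12189 bp after the outer start on a background of 11.4. Gene body regions thus went both ways within 5 kb of each other at ITGB5.

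The remaining genes had few strong differences. At ITGB3, the beta subunit gene of the vitronectin receptor, 1 shared region in the gene body was higher in hTBLC, with 35 (24.4 to 48.7) in hTBLC and 9 (4.12 to 17.1) in primed, a ratio of 3.56 (1.68 to 8.41). It was the 1 matched region of the 8 loci that was past 2-fold upwards with an interval above 1. The strongest library-only regions near ITGB3 had a pileup of 18 (10.7 to 28.4) in hTBLC, inside the gene, and 24 (15.4 to 35.7) in primed, 48654 bp beyond it. At ITGB1 the strongest hTBLC-only regions lay upstream of the gene. One had a pileup of 54 (40.6 to 70.5) at 32983315 to 32983821, 25206 bp before the start, and one, named after its value was seen, had 36 (25.2 to 49.8) at 32995685 to 32996076. The strongest primed-only region at ITGB1 had a pileup of 11 (5.49 to 19.7). At ITGAV the 15 hTBLC-only regions were weak, with a median pileup of 13. The highest, 35 (24.4 to 48.7) with a fold of 2.18, lay 885 bp after the start and 184 bp from a primed region, beside the start region. A matched region 14578 bp before the ITGAV start, also named after its values were seen, had 119 (98.6 to 142) in hTBLC and 65 (50.2 to 82.8) in primed, a ratio of 1.67 (1.23 to 2.30). The strongest primed-only region there had a pileup of 16 (9.15 to 26.0).

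Starts, gene bodies and flanks were then set side by side over the 8 loci. In gene bodies outside the starts, 36 of 80 hTBLC regions were hTBLC-only (45.0%, 34.6 to 55.9), where this share over the bodies of all protein-coding genes was 40.1%. In primed, 22 of 65 body regions were primed-only (33.8%, 23.5 to 46.0), against 41.9% over all genes. Both intervals include the value over all genes. At the starts, 2 of 13 regions were library-only in hTBLC (15.4%, 4.33 to 42.2), against 9.45% over all protein-coding genes. In primed, 2 of 13 were library-only (15.4%, 4.33 to 42.2), against 11.2% over all genes. Exon positions were not used here, so a gene body region can lie in an intron or an exon. Of 106 matched regions, 2 had a ratio of at least 2, where 7.66% of all matched regions did. A ratio of 0.5 or lower was found for 10 (9.43%), where 13.3% of all matched regions did. The 10 lay at ITGA5, ITGA6 and ITGB5, with 6 in gene bodies and 4 in flanks. The median log2 ratio was −0.09 at the 8 matched starts, −0.23 at 42 body regions and −0.03 at 52 flank regions, and over all protein-coding genes it was 0.01 at starts, −0.18 in bodies and −0.13 in flanks.

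**Figure D5:**
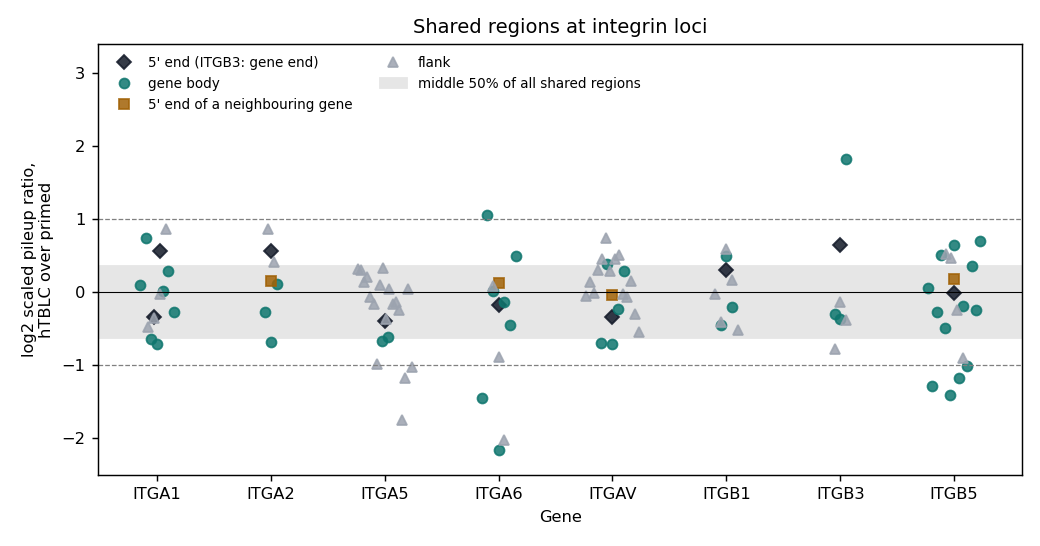
log2 of the scaled pileup ratio, hTBLC over primed, at each matched region by gene and location; dashed lines mark 2-fold and the grey band the middle 50% of all matched regions. The starts lie between the dashed lines at every gene, and the points below −1 belong to ITGA5, ITGA6 and ITGB5.

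Other genes of integrin adhesion served as context, from lists of 18 further integrin subunits, 20 matrix ligands and 22 proteins of the adhesion complex. Of the further subunits, 10 had an annotated start, which was accessible in both libraries for 5, ITGA4, ITGA8, ITGA10, ITGA11 and ITGB8, where the share over all genes was 79.3%. For ITGAM, a leukocyte subunit, hTBLC alone had a start region, of pileup 9 (4.12 to 17.1). ITGAE and ITGB7, which encode the alpha E and beta 7 subunits of lymphocyte integrins, had one in primed alone, with pileups of 9 (4.12 to 17.1) and 15 (8.40 to 24.7). These 3 regions had −log10 q values of 2.71, 2.87 and 4.64 and were lost from their lists at a limit of 5. Among ligand genes, 16 of 17 starts were accessible in both, and for LAMA3, a laminin chain gene, primed alone had a region, of pileup 8 (3.45 to 15.8). Its −log10 q of 2.32 was also below the limit of 5. In the adhesion complex, 17 of 18 were accessible in both, and for FERMT3, the kindlin gene of blood cells, hTBLC alone had a region, of pileup 25 (16.2 to 36.9). No start ratio in these lists reached 2-fold in either direction, with a range of 0.65 to 1.29 for 15 ligand genes and 0.84 to 1.44 for 16 adhesion complex genes.

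The lowest local background was 1.96 in hTBLC and 1.79 in primed, and the median summit pileup of all peaks was 17 in hTBLC and 18 in primed. Of the stem cell markers with an annotated start, all 3 were accessible there in both libraries: SOX2 with 85 in hTBLC and 116 in primed, NANOG with 21 and 35, and LIN28B with 107 and 75. The scaled ratio was lower in hTBLC at SOX2, at 0.67 (0.50 to 0.89), and at NANOG, at 0.55 (0.30 to 0.97), and the LIN28B interval of 0.96 to 1.78 included 1. Without scaling the NANOG interval included 1, at 0.60 (0.33 to 1.06), and that of LIN28B lay above 1, at 1.43 (1.05 to 1.94). Of the markers of other cell types, ALB and PTPRC had no start region in either library, and KRT5 had a pileup of 10 in hTBLC and 10 in primed. Lines were missing for 327 ranks of the hTBLC list and 252 of the primed list, and regions on those lines could not be seen.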

How the data were processed

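Peak lists of 2 ATAC-seq libraries were analysed, 1 from hTBLCs and 1 from primed WIBR3 cells, grouped by their labels. Per the submitters' processing notes, the tools were Bowtie2, Picard and MACS2, with hg38 as the build. Their settings, read shifting and duplicate handling were not given in the sources used here. Each library has its own peak list. The authors deposited for each peak its position, a fold ratio over local background, a −log10 p and a −log10 q, and a score equal to 10 times the −log10 p with a maximum of 1000, which was not used. The lowest deposited −log10 p was 2.83 in hTBLC and 2.00 in primed, so the 2 lists end at unlike limits. The last rank was 300000 in hTBLC and 296005 in primed. Whether the hTBLC list was cut at that rank was not tested.

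Whole pileups and local backgrounds were solved from the fold and −log10 p (99.998% of hTBLC and 99.999% of primed peaks within 0.001; 100% of 20000 simulated peaks were recovered), with Python 3.11.15 and scipy 1.17.1. Read totals are unknown, so depth is known only through the lowest background. Overlapping or touching peaks on chromosomes 1 to 22 and X were merged. Gene bodies and starts came from RefSeq tables of GRCh38.p14, whose primary coordinates are those of hg38. Ratios use regions that overlap 1 to 1, or at starts the strongest regions if they overlap.

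Members, gene lists, the naming rule and the tests were chosen with earlier results of these data known. The rule named each gene's start region, its strongest hTBLC-only and primed-only regions, and up to 2 matched regions per gene past 2-fold with an interval without 1, plus context genes with a start region in 1 library. For ITGA5, ITGA6 and ITGB5 all 3 such regions are given. Shares have Wilson intervals. The alternatives were −log10 q limits of 5 and 10, a common −log10 p floor, reciprocal overlap of 50%, sharing within 500 bp, gene bodies or 10 kb, unscaled ratios and start windows of 500 and 2500 bp. A count restricted to library-only regions at a −log10 q of 10 or more was added after the data were seen.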

Additional observations from a re-analysis of the deposited data

How the results depend on the processing

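Start ratios of the 8 genes stayed inside their intervals without scaling and with start windows of 500 and 2500 bp. The sum over the 8 loci depended on the calling limit. With a −log10 q of at least 5 it was 34 hTBLC-only (29.6% of hTBLC regions) and 32 primed-only regions, a difference of 2 in place of 18. With at least 10 it was 17 (22.7%) and 22, a difference of −5, so the order reversed, and at ITGB5 the difference was −2 at a limit of 5, which is also a reversal. A common −log10 p floor for both lists gave 64 hTBLC-only and 45 primed-only regions. Reciprocal overlap of 50% gave shares of 49.1% for hTBLC and 42.9% for primed. Shares over all regions are not given for these alternatives. The shares here therefore cannot be set against the 39.2% and 37.3% over all regions given above. Gene bodies alone held 38 hTBLC-only and 23 primed-only regions, and 26 primed-only regions lay within 10 kb. Restricting the count to library-only regions at a −log10 q of 10 or more, added after the data were seen, gave 10 and 7, a difference of 3. Without scaling the median log2 ratio at the starts of neighbouring genes was 0.27. Integrin starts in hTBLC alone numbered 0 under the limit of 5, and those in primed alone numbered 1 there, which was ITGA5, and 1 with a window of 2500 bp, which was ITGB7. Higher limits drop regions by construction, and they make a region library-only when its partner in the other list is dropped. The cause of the other shifts was not tested. ITGA6 kept more primed-only regions under all 8 alternatives tried, with differences of −3 to −6. The median pileup of 12.5 in either library leaves a wide counting error for most library-only regions. No paired analysis was possible because each group has 1 library.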
